A study of Mus musculus with 61 samples.

Results

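The Hox genes of the adult mouse brain were followed across 61 brain fractions. They are the members of the Hoxa, Hoxb, Hoxc and Hoxd clusters, and each probe of the array was assigned to its gene through the RefSeq identifier given in the array files. Of 38 genes looked for, 36 were measured by 43 of the 41174 non-control probes, and no probe was matched to Hoxc11 and Hoxd8. The choice used no measured value. Where a gene had more than 1 probe, the one with the higher mean intensity stands for the gene.

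The mice were of the strain C57BL/6J, male and 8 weeks of age, with no treatment or transgene given in the labels, and the brain of each of the 6 mice gave 1 series of fractions. A fraction is 200 slices of 5 µm, 1 mm in width, whose RNA was pooled, labeled with 1 dye and read on a separate Agilent array of the mouse genome. The coronal series C (13 fractions) and Co (16) are numbered from the caudal to the rostral end, the horizontal series H (6) and Ho (7) from dorsal to ventral, and the sagittal series S (9) and So (10) from left to right, as the study's methods give them. So, Co and Ho were cut slightly obliquely. The methods join 56 of the fractions into 28 pairs, each with 1 fraction from each of the 2 mice of a plane. As pairs they took the fractions with the highest correlation over all probes in these same arrays, or by fraction order where that left a choice. The spread within pairs is the error of every comparison. It mixes mouse, cut and position, and the choice of pairs by likeness can make it too small.

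Hox genes encode homeodomain transcription factors. They lie in 4 clusters on different chromosomes, and genes at corresponding places of the clusters carry the same paralogue number. In the embryo they are switched on along the head-to-tail axis in the order in which they lie in the cluster, so that genes of low number reach forward into the hindbrain and genes of high number are kept to the cord and tail, a relation known as collinearity. Their proteins bind DNA with partners of the Pbx and Meis families, and retinoic acid helps to set their limits. The forebrain and midbrain form in front of the Hox domain.

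Promoter sequences are shown for the signals just named, Pbx-Meis partners and retinoic acid. RefSeq promoters on GRCm38.p6 were found for 21 of the 36 genes, and the 250 bases before the start were searched on both strands for a Pbx-Hox site, a Meis site, a homeodomain site, a retinoic acid receptor half-site and a TATA box. Hoxa2, Hoxb8 and Hoxd4 are given as genes that were higher at the caudal end and whose promoters hold several of these motifs. Of these, Hoxb8 was above background on only 2 of the 6 caudal arrays. Hoxd10 is given as a gene that was above background on 0 arrays. Capitals mark the matches on either strand. Hoxa2 (chr6:52164832-52165081, minus strand) holds the Pbx-Hox and Meis letters, Hoxb8 (chr11:96281655-96281904, plus strand) the Pbx-Hox letters and 2 TATA boxes, Hoxd4 (chr2:74721728-74721977, plus strand) a receptor half-site and a TATA box, and Hoxd10 (chr2:74691641-74691890, plus strand) a receptor half-site.
Hoxa2: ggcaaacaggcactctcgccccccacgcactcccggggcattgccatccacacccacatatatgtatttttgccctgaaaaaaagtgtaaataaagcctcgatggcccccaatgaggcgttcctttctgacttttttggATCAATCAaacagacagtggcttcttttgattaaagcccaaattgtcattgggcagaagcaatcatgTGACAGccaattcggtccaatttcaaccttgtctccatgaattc
Hoxb8: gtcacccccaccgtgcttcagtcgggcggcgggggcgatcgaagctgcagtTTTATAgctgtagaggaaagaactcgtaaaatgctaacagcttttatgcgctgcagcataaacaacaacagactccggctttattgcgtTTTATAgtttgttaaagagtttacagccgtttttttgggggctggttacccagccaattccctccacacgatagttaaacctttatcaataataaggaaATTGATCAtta
Hoxd4: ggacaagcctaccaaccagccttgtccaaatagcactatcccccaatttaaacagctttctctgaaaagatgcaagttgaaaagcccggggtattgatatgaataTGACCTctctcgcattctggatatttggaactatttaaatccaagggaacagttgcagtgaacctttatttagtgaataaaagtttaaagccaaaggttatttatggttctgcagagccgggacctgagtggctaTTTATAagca
Hoxd10: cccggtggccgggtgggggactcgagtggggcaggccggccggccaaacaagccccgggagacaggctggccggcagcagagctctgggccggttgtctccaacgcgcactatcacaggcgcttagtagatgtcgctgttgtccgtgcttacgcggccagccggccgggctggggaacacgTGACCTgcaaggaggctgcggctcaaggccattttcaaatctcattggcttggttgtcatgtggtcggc

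The motifs were held by 1 to 5 of the 21 Hox promoters each. Caudally high genes are here those above background on at least 10 arrays with a caudal rise of over 1 (log2). Hoxb8, above background on 3 arrays, was added to them by hand. The Pbx-Hox site, searched as TGATNNAT, stood in Hoxa2 and Hoxb8 among the 10 caudally high genes with a promoter sequence, in Hoxb1 and Hoxd11 among the other genes, and in 7.68% of all 32851 promoters. The receptor half-site, AGGTCA, stood in Hoxb4, Hoxd3 and Hoxd4 of those 10, in Hoxc4 and Hoxd10 of the others, and in 14.0% of all promoters. The Meis site, TGACAG, stood in Hoxa2 and Hoxa3 and in 15.9% of all promoters. The homeodomain site, TAATTA, stood in the promoter of Hoxd11 and in 4.84% of all promoters. The TATA box was searched as TATAAA and stood in Hoxb8, Hoxd4, Hoxa10 and Hoxd13 and in 12.4% of all promoters, and no matches of different motifs overlapped in the 4 promoters shown. A match is a run of letters in this window and not a shown binding site.

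Between 57.9% and 73.1% of the probes per array were well above background by the flag of the Agilent software, and 36573 probes that passed on at least 1 array entered the tests. C10 had the highest share and stood apart for dim Hox genes: 4 of the 15 genes with at most 5 other positive arrays were above background there, against at most 1 of them in any other array. Hoxa13, by the probe that stands for it, was positive in C10 alone, while its other probe was positive in So5 alone. The tissue label of the caudal fractions was checked with 6 hindbrain genes, among them the glycine transporter Slc6a5 and the glycine receptor Glra1, and all 6 were higher there than in the other coronal fractions.

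The number of arrays with a signal differed by paralogue number. A gene is called detected here when at least 1 spot of its probe was well above background. Of the 36 Hox genes, 27 were detected on at least 1 of the 61 arrays, 20 on at least 10 and 9 on 0, and without C10 the first number was 26. Of all 41174 probes, 88.8% were detected on at least 1 array and 72.0% on at least 10. With all spots of a probe required the counts were 26, 19 and 10, and by the flag for a positive and significant signal 35, 28 and 1. All 7 genes of paralogue groups 1 to 3 and all 12 genes of groups 4 to 7 were detected, each on 11 arrays or more. Hoxb1, detected on 11, was read by 10 spots, and on 0 arrays were all of them above background. Of the 6 genes of groups 8 and 9, 4 were detected, of which Hoxa9 was on 40 arrays, Hoxb9 on 6, Hoxb8 on 3 and Hoxc9 on 1. Of the 11 genes of groups 10 to 13, 4 were detected, each on 6 arrays or fewer.

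The genes not well above background on any array were Hoxa10, Hoxa11, Hoxc8, Hoxc12, Hoxc13, Hoxd9, Hoxd10, Hoxd12 and Hoxd13. The detected genes of groups 10 to 13, which pattern the lower cord, limbs and tail, were positive in scattered fractions: Hoxc10 in So2, So4, So8 and C10, Hoxd11 in C7, C10, Co9, Co12 and Ho6, Hoxb13 in S3, S7, So9, C10, Co4 and Co15, and Hoxa13 in C10. For genes without a signal the array shows only that they did not stand clear of background. By cluster, 8 of 10 Hoxa, 10 of 10 Hoxb, 5 of 8 Hoxc and 4 of 8 Hoxd genes were detected. Hoxa3, Hoxa7 and Hoxc4 were detected on all 61 arrays, as were 54.2% of all probes.

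**Figure D1:**
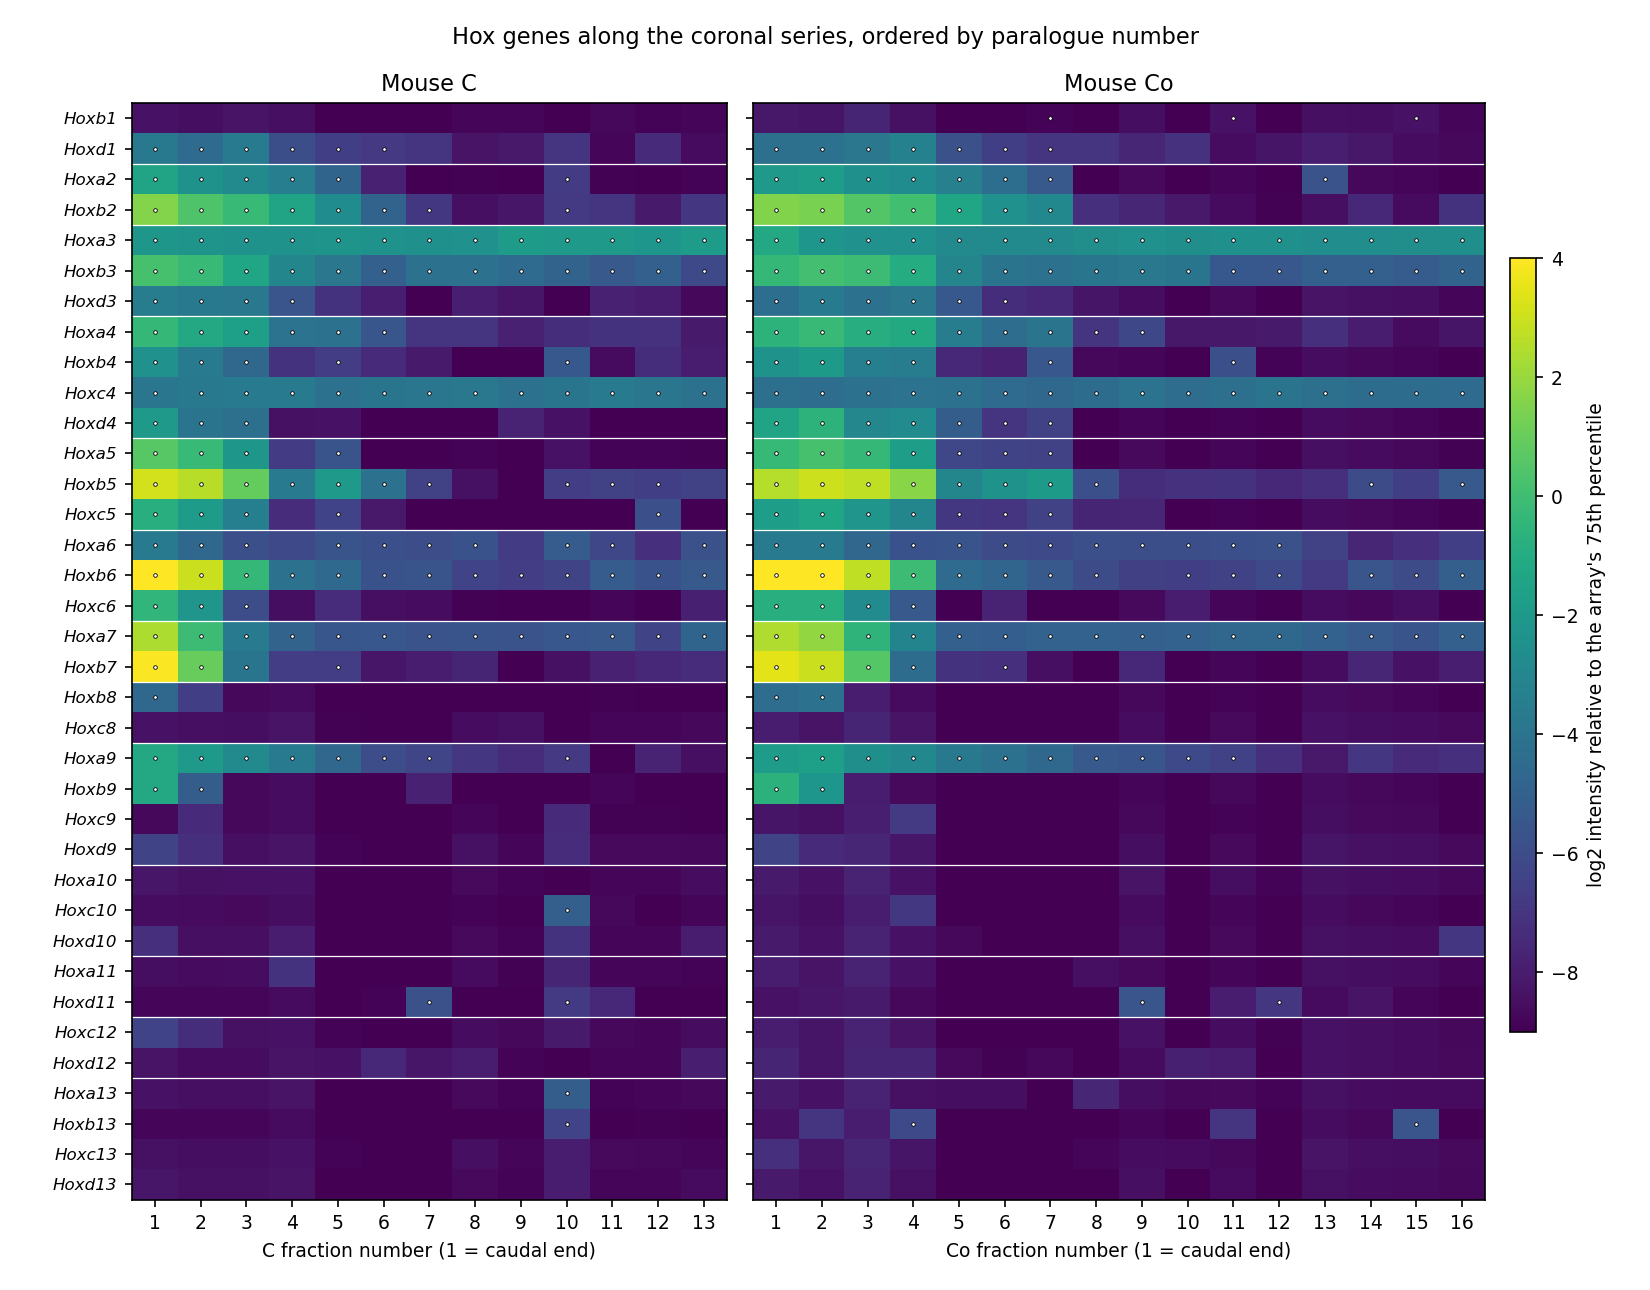
Levels of the 36 Hox genes, ordered by paralogue number with white lines between the groups, in the coronal fractions of mice C and Co, numbered from the caudal end. Colour is the log2 intensity relative to the array's 75th percentile, cut at the ends of the colour bar, and dots mark probes well above background. Most genes of groups 1 to 7 are bright in the first fractions, groups 10 to 13 are dark apart from single fractions such as C10, and Hoxa3 and Hoxc4 are even from C1 to C13 and from Co2 to Co16.

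At the caudal end most detected Hox genes stood far above their level elsewhere in the coronal series. A level is given from here on as the log2 intensity relative to the 75th percentile of its own array. The 3 caudal pairs (C1 to C3 with Co2 to Co4) were set against the other 10 coronal pairs by a contrast in limma's fit over the 28 pairs, with Benjamini-Hochberg adjustment over all 36573 probes and a threshold of 0.05. Of 27 Hox genes tested, 21 rose at the caudal end and the other 6 did not pass in either direction, where 25.3% of all probes tested were called higher and 18.1% lower. The median difference over the 27 genes was 4.11 (log2), against 0.11 over all probes. With arrays below background set at the floor described next, the median over the 27 genes was 4.00. Many genes were not above background on part of the other arrays, so their folds are given against a floor and written "at least". Each of the other arrays was given the higher of its own level and the lowest level of any probe above background on that array. A probe with several spots needs only 1 above background, as Hoxb1 (10 spots) in Co11 at -8.35. Hoxa6 (1 spot) was not above background in C4 at -6.15. The floor can thus lie below a gene's own limit of detection, and these folds are not strict lower bounds. In bulk tissue, more expressing cells and more RNA per cell cannot be told apart.

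Hoxb5, a gene of the group active at the level of the caudal hindbrain and neck, had levels of 3.13, 2.60 and 0.94 in C1, C2 and C3 and of 3.03, 2.77 and 1.71 in Co2, Co3 and Co4. Its 20 other coronal arrays lay between -9.07 and -1.94 with a median of -6.48, so that the groups did not overlap. Of those 20, 12 were above background, and the caudal level was at least 254-fold higher, with an adjusted p of 8.14e-13 (limma, Benjamini-Hochberg). Hoxa5 is of the same paralogue group and is known for its role in the respiratory system. Its levels were 0.63, -0.22 and -2.14 in C1 to C3 and 0.24, -0.36 and -1.79 in Co2 to Co4, against -9.51 to -5.61 in the others. In 4 of the 20 others the signal was above background, so that the caudal level was at least 147-fold higher (limma adjusted p = 3.93e-13), again without overlap.

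Hoxb6 had levels of 4.69, 2.97 and -0.34 in C1 to C3 and of 4.02, 2.75 and -0.09 in Co2 to Co4, against -6.66 to -4.15 in the other coronal arrays. The difference was 8.02 ± 0.48 (SE, log2; limma adjusted p = 1.09e-14). Hoxb6 was still above background in 19 of those 20 arrays. Hoxb7 fell more steeply within the caudal end, from 3.93 in C1 to 0.97 in C2 and -3.94 in C3, and from 2.94 in Co2 to 0.55 in Co3 and -4.42 in Co4. Its other arrays lay at -6.63 or below and 2 of the 20 were above background, and the caudal level was at least 229.9-fold higher (limma adjusted p = 3.04e-14). Both genes belong to the groups that pattern the neck and upper trunk.

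Without a gap, Hoxb5 was above background in the first 7 fractions of C and 8 of Co, and Hoxb2 in 7 of each. Hoxb2, which acts in the segments of the embryonic hindbrain, fell less over the caudal end than Hoxb6 and Hoxb7. It stood at 1.56, 0.42, -0.22, -1.38, -2.69, -4.88 and -6.88 from C1 to C7, all above background, and at 1.37, 0.51, 0.05, -1.29, -2.43 and -2.92 from Co2 to Co7, and was no longer above background in Co8, at -7.25. The caudal pairs were at least 106-fold higher than the others (limma adjusted p = 2.34e-13), where it was above background on 8 of 20 arrays. Hoxa2, its paralogue and the most forward Hox gene of the embryonic hindbrain, was above background without a gap in C1 to C5 and in Co1 to Co7. It fell from -1.42 in C1 to -4.82 in C5 and from -1.70 in Co2 to -5.39 in Co7, and was at least 31.8-fold higher at the caudal end, with 6 of the 20 other arrays above background.

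Among the other genes of groups 1 to 4, Hoxb3 was above background on all 20 other arrays and had a caudal difference of 4.11 ± 0.21 (SE, log2). The caudal level was at least 50.3-fold higher for Hoxa4, 37.0-fold for Hoxd4, 20.2-fold for Hoxb4, 15.3-fold for Hoxd3 and 11.4-fold for Hoxd1, which were above background on 8, 3, 4, 3 and 6 of the 20 other arrays. In all 6 genes the caudal arrays lay above every other coronal array. Hoxd1, a group 1 gene with a known role in sensory neurons, was even over the caudal end, with -3.76, -4.43 and -3.58 in C1 to C3 and -4.08, -3.82 and -3.31 in Co2 to Co4. It then dropped to -5.86 in C4 and -5.76 in Co5. Hoxd3 had the same shape, with -3.55, -3.73 and -3.79 in C1 to C3 and a drop to -5.59 in C4 and -7.10 in C5.

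Among groups 5 to 7 the caudal difference was 4.74 ± 0.28 (SE, log2) for Hoxa7 and 1.42 ± 0.17 for Hoxa6, which were above background on 20 and 15 of the 20 other arrays. Hoxc5, above background on 5 of them, was at least 48.4-fold higher. Hoxc6, a gene of the forelimb level of the cord, was above background on all 6 caudal arrays and on 0 of the 20 others, so its level was at least 39.4-fold higher at the caudal end. Hoxa7 fell from 2.41 in C1 to -3.60 in C3 and from 1.89 in Co2 to -3.12 in Co4 but was detected on every other array too, at -6.32 to -4.60. Hoxa6 was the 1 gene of these groups whose caudal arrays overlapped the others, with 4 of 6 above all of them.

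Among groups 8 and 9, Hoxa9 stood out by its reach. It was above background from C1 to C7 and from Co1 to Co11, and fell from -1.14 in C1 to -6.29 in C7 and from -1.67 in Co2 to -6.43 in Co11 (at least 16.0-fold higher at the caudal end, with 12 of the 20 other arrays above background). Hoxb9, by contrast, was detected in C1 at -1.14, in C2 at -5.18, in Co1 at -0.66 and in Co2 at -2.18, and was back at background in C3 and Co3. Its caudal pairs were at least 6.81-fold higher than the other coronal pairs, where it was above background on 0 of 20 arrays. Hoxb8 was detected in C1 at -4.59, in Co1 at -4.34 and in Co2 at -4.17, which made the caudal pairs at least 3.15-fold higher. Both are genes of the trunk level, and along the coronal series neither was detected in a later fraction.

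Hoxb1 and Hoxc9 also passed the test, but both were above background on 0 of the 6 caudal arrays. The 4601 probes that were above background on 0 arrays had a median caudal difference of 0.59, and 82.7% of them would be called higher, against 0.17 and 32.1% over all 41174 probes. The 6 tested genes that did not pass were Hoxa3 (0.10), Hoxc4 (0.13), Hoxa13 (0.26), Hoxc10 (0.62), Hoxb13 (0.85) and Hoxd11 (-0.13, all log2).

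The caudal pattern was alike in direction in both coronal mice. In 16 of the 27 tested genes the 3 caudal fractions lay above all other fractions of the series in C and in Co alike, which held for 0.793% of all probes. A test in limma of whether the caudal difference itself differed between Co and C called 0 of 27 Hox genes (3.91% of all probes), with 2 of 27 at an unadjusted p under 0.05. The lowest adjusted p was 0.106, for Hoxa9, with a Co minus C value of -1.36 (log2). This test was chosen after the values were seen.

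The slides were a batch along the coronal series, since neighboring fractions mostly shared one. C1 to C4 lay on 1 slide, and within it the mean of C1 to C3 was above C4 for 21 of the 21 called genes, by 0.07 to 6.95 (log2, median 3.02). The genes were called with these same arrays, so the count is a description and not a separate test. Hoxb1 and Hoxc9 are in it, although neither was above background on any of these arrays. In Co the fractions Co1 to Co4 filled a slide, so that slide and caudal position cannot be told apart there. With the slide as a fixed block 17 of the genes were called, and Hoxb4 (adjusted p = 0.056) and Hoxb9 (adjusted p = 0.084) were among those lost.

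Markers of several tissues were compared over the same fractions. In the caudal against the other coronal pairs, 6 of 6 cerebellum genes, 6 of 6 hindbrain genes, 7 of 8 genes of meninges and fibroblasts and 3 of 4 blood genes were called higher, where 25.3% of all probes were. The choroid plexus genes were split, with 3 of 7 higher and 1, Aqp1, lower by 1.22 (log2). Their median was 0.14 against 0.11 over all probes. The summed level of the hindbrain genes (sum of the intensities relative to each array's 75th percentile) ranged from 2.56 to 4.87 on the caudal arrays and from 0.07 to 2.98 on the others, and that of the meningeal genes from 21.4 to 55.4 and from 10.9 to 49.1. The part of these tissues in the levels of the Hox genes was not tested.

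**Figure D2:**
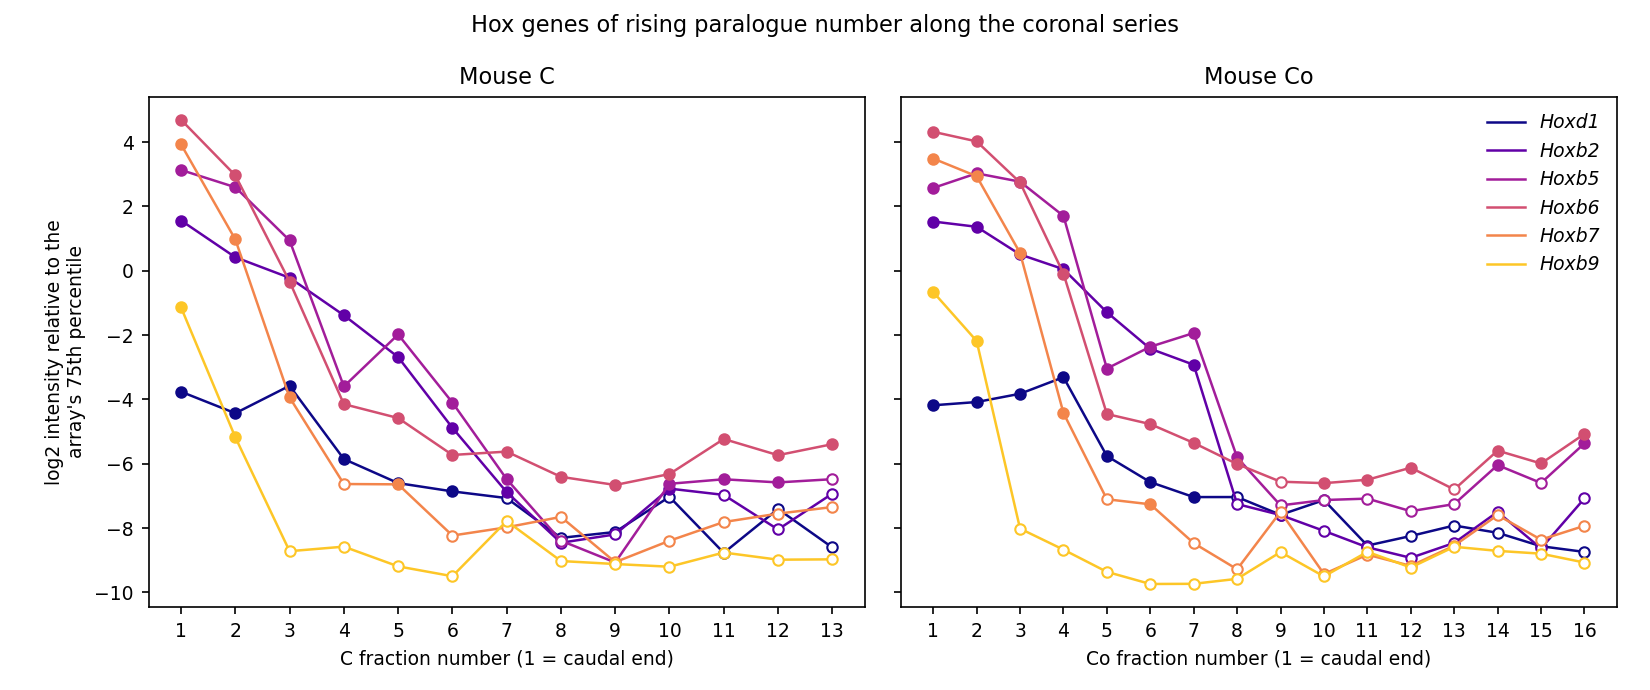
Levels of Hoxd1, Hoxb2, Hoxb5, Hoxb6, Hoxb7 and Hoxb9 (log2 intensity relative to the array's 75th percentile) against fraction number from the caudal end in mice C and Co; filled points are well above background and open points are not. Hoxd1 is flat over the first fractions, Hoxb2 declines slowly, and Hoxb7 and Hoxb9 drop by several log2 units within the first fractions.

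The place of the drop was then tested between neighboring pairs. Pair c1 joins C1 and Co2, c2 joins C2 and Co3, and so on. From c1 to c2, 3 of 27 Hox genes fell (3.45% of all probes): Hoxa7 by 2.46 (log2), Hoxb9 by at least 26.8-fold and Hoxb8 by at least 6.65-fold. From c2 to c3, 4 genes fell (0.159% of all probes), namely Hoxb7 by 4.95, Hoxc6 by 3.19, Hoxa7 by 3.06 and Hoxb8, which was above background on 0 arrays of both pairs. From c3 to c4, 2 genes fell (0.0246% of all probes), namely Hoxc5 by 3.93 and Hoxd1 by 2.37, and from c4 to c5 Hoxd3 fell by 1.70 (6.56% of all probes). Hoxc5 and Hoxd3 were above background on 1 of the 2 arrays of the pair in front of their step. The other genes passed at none of these steps.

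These steps rest on 2 arrays on each side. Without C2 or without C3 the call was lost for all 4 genes from c2 to c3, and without Co3 or Co4 the count was 2 or 1. From c3 to c4 the count was 0 without C4, C5, Co4 or Co6 and 1 without many of the other single arrays, and from c4 to c5 it was 0 without C4, C5, Co5 or Co6.

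The early fall tended to be larger for genes of higher paralogue number, with exceptions. The fall was measured as C1 minus C3 and as Co2 minus Co4, a measure chosen after the values had been seen, and is given without a test because genes are not independent replicates. Over the 20 genes detected on at least 10 arrays, Spearman's rho with the paralogue number was 0.73 in C and 0.77 in Co, and over the 17 of them with a caudal rise of over 1 (log2) it was 0.71 and 0.74. In C the fall was -0.18 for the group 1 gene Hoxd1, 1.36 and 1.78 for the group 2 genes, 0.24 and 1.57 for Hoxd3 and Hoxb3 of group 3, 1.32 to 2.23 for Hoxa4, Hoxb4 and Hoxd4 of group 4, 2.19 to 2.78 for group 5, 2.14 to 5.49 for group 6, and 6.01 and 7.87 for the group 7 genes Hoxa7 and Hoxb7. In Co the same genes gave -0.77, 0.99 and 1.32, 0.15 and 1.06, 0.95 to 2.13, 1.32 to 2.03, 2.13 to 4.55, and 5.01 and 7.36. The points share the same few arrays, and a dim gene can fall less far than a bright one before it meets the background.

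Several genes departed from the order. Hoxd3 and Hoxa3 of group 3 lay below the group 2 genes, with 0.24 each in C and 0.15 and 0.24 in Co, and Hoxc4 of group 4 had -0.19 in C and -0.31 in Co. For Hoxa3 this depended on the probe, as its other, dimmer probe fell by 1.18 in C and 1.15 in Co. Hoxa9 had a fall of 1.65 in C and 1.27 in Co, close to that of group 2. Hoxa6 fell by 2.14 in C and 2.13 in Co, while its paralogues Hoxb6 and Hoxc6 fell by 5.03 and 5.49 in C. The intensity-weighted mean position was further caudal for higher numbers (rho -0.60 in C and -0.54 in Co). The number of neighboring fractions from the caudal end with a signal above background showed no such relation over the 20 genes (rho 0.01 in C and 0.19 in Co). Hoxa3, Hoxb3, Hoxc4 and Hoxa7 were detected along most or all of the coronal series, and Hoxa9 over 7 fractions of C and 11 of Co. Over the 19 genes detected in C1 and Co1, with Hoxa3 and Hoxc4 left out, rho was -0.29 in C and -0.11 in Co. Without Hoxa9 as well it was -0.44 and -0.25.

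**Figure D3:**
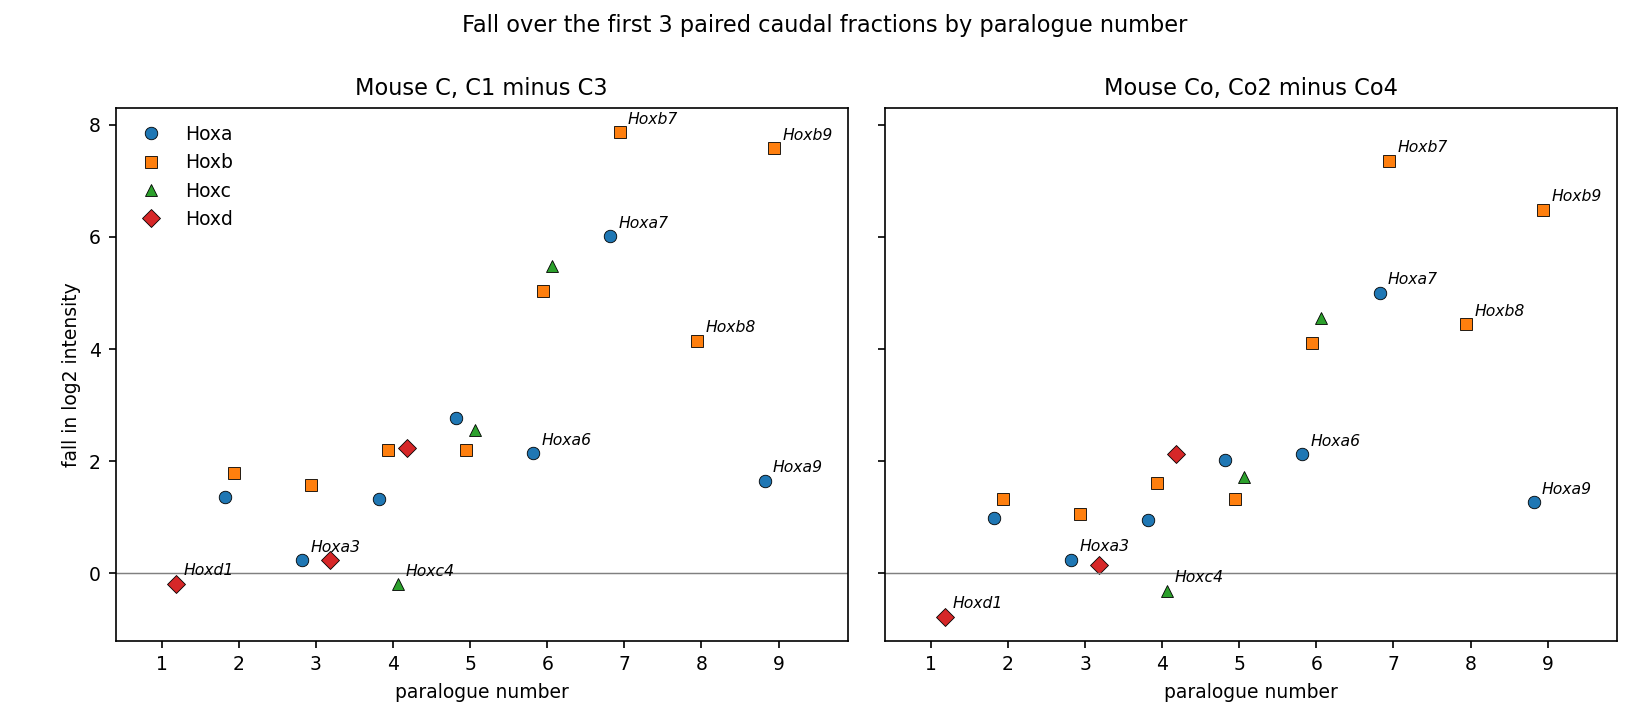
Fall in log2 intensity over the first 3 paired caudal fractions (C1 minus C3 in mouse C, Co2 minus Co4 in mouse Co) against paralogue number, with 1 point for each Hox gene detected in C1 and Co1 and symbols for the 4 clusters. Falls are below 0 for Hoxd1 and Hoxc4 and near 0.2 for Hoxd3 and for Hoxa3 by its brighter probe. They are about 1 to 3 for the other genes of groups 2 to 5. Hoxa7 and Hoxb7 lie above 5, while Hoxa9 lies low. Hoxb8 and Hoxb9, which are shown here, were detected on under 10 arrays and are left out of the correlations of the fall.

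Over all 28 pairs of the 3 planes, 24 of the 27 tested Hox genes varied (limma's moderated F test, 61.3% of all probes), with a median F of 14.9 against 2.58 over all probes. The genes that did not pass were Hoxa3, Hoxa13 and Hoxd11. With the mouse as a block the count was again 24, but Hoxa3 passed (limma adjusted p = 0.0187) and Hoxc10 did not (0.283). Within single planes, 19 genes varied over the coronal pairs alone (37.7% of all probes), 17 over the horizontal pairs (12.6%) and 1 over the sagittal pairs (6.59%).

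In the horizontal series the Hox genes were high in the ventral fractions. H4 to H6 with Ho5 to Ho7 were compared with H1 to H3 and Ho2 to Ho4, and 16 of 27 Hox genes rose ventrally (7.38% of all probes), with a median difference of 2.04 over the 27 genes against -0.01 over all probes. Hoxb5 had levels of 0.45, -0.10 and -2.02 in H4 to H6 and of -0.18, 0.13 and -0.51 in Ho5 to Ho7, and of -9.08 to -3.02 in the dorsal fractions. With 2 of the 6 dorsal arrays above background, the ventral level was at least 106-fold higher (limma adjusted p = 5.29e-08).

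Hoxb6, above background on all 6 dorsal arrays, rose ventrally by 5.33 ± 0.60 (SE, log2). Hoxb2 was at least 58.6-fold, Hoxb7 at least 33.8-fold and Hoxa5 at least 25.1-fold higher, each above background on 1 of the 6 dorsal arrays. The ventral arrays of the called genes lay above all dorsal arrays except for Hoxb3 and Hoxd4, where H6 lay below Ho4. The highest dorsal value came from Ho4, the fraction next to the ventral ones, for 13 of the 16 genes, as for Hoxb5 (-3.02) and Hoxb6 (-3.03), but not for Hoxa7, Hoxd1 and Hoxd3. Hoxc6 was above background on all 6 ventral and 0 of 6 dorsal arrays, at least 6.00-fold higher. Hoxa6 (0.10), Hoxc4 (-0.16) and Hoxb9 (0.68) did not pass. Of the hindbrain genes 5 of 6 were higher ventrally too, with a summed level of 0.63 to 2.20 on the ventral and 0.11 to 0.73 on the dorsal arrays, as were 4 of 5 olfactory bulb genes (4.79 to 12.0 against 0.88 to 7.45), 4 of 5 striatum genes (7.27 to 14.8 against 2.02 to 7.01), 5 of 7 choroid plexus and 2 of 6 pituitary genes. All 6 cerebellum genes were lower (24.2 to 46.8 against 53.7 to 82.0). The part of these tissues was not tested. Within the slide that held H3 to H6, the 16 called genes were 1.45 to 5.70 (log2) higher in H4 to H6 than in H3. They were called with these same arrays, so this is a description and not a separate test. In Ho the ventral fractions filled a slide of their own.

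In the sagittal series the levels were raised in and next to the middle fractions. S4 to S6 with So5 to So7 were compared with the other sagittal pairs, and 14 of 27 Hox genes rose at the middle (7.67% of all probes), with a median difference of 1.13 against 0.02. Hoxb5 stood at 0.67, 0.30 and 0.42 in S4 to S6 and at -0.49, -0.27 and -0.24 in So5 to So7. The other arrays ranged from -7.94 to 0.27 and thus overlapped, since S3 (-0.02), S7 (-0.08) and So8 (0.27), next to the middle, were as high. The middle was at least 9.95-fold higher (limma adjusted p = 2.77e-04), with 9 of the 12 other arrays above background. In S the highest fraction was a middle one for all 14 genes, but in So it was so for 5, while 7 genes were highest in So8, Hoxa2 in So9 and Hoxa7 in So2. Hoxd3 was called although it was above background on 0 of the 6 middle arrays.

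Hoxa4, a gene of the caudal hindbrain, was at least 8.08-fold higher, with a level of 0.74 in So6 against -3.62 to -2.38 on the other 5 middle arrays. Its other probe read -5.21 in So6, within the range of its own middle arrays, and was at least 2.95-fold higher at the middle. Hoxb6 rose by 2.62 ± 0.52 (SE, log2), and Hoxb7 and Hoxa5 were at least 6.91-fold and 5.83-fold higher. Hoxc6 and Hoxd4 had the clearest separation, with 4 of 6 middle arrays above all the others. The hindbrain genes were higher in the middle for 5 of 6 as well (summed level 1.44 to 2.21 against 0.15 to 1.83), and 5 of 5 olfactory bulb genes (3.42 to 13.1 against 0.63 to 8.52) and 3 of 4 thalamus genes (13.5 to 17.1 against 4.59 to 15.3) were too. On each of the 4 slides that held middle and other fractions, the mean of the middle fractions was above that of the others for all 14 genes. The median difference ran from 0.59 (So7 against So8 to So10) to 2.57 (S6 against S7 to S9), although So8 alone lay above So7 for 10 genes. The 14 genes were called with these same arrays, so this too is only a description.

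**Figure D4:**
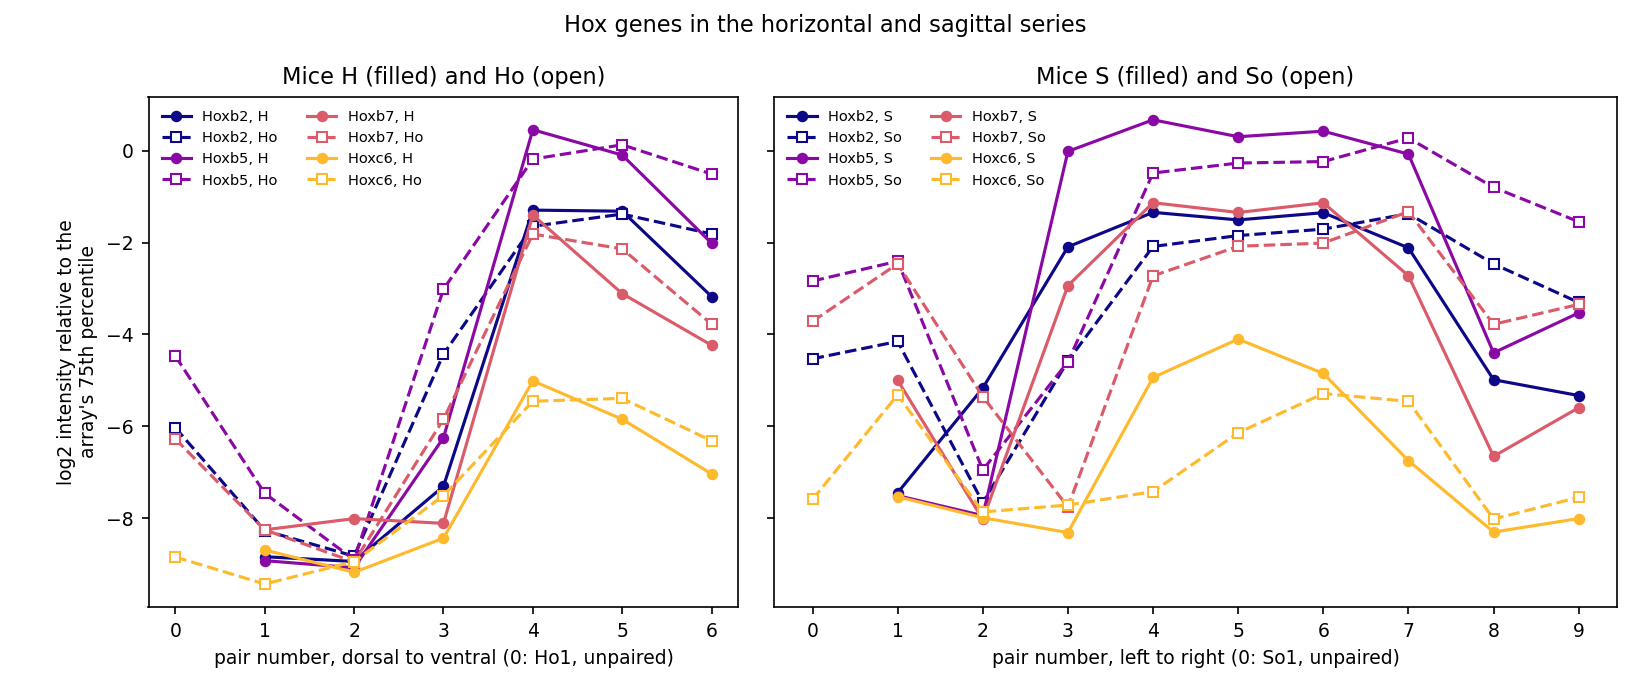
Levels of Hoxb2, Hoxb5, Hoxb7 and Hoxc6 (log2 intensity relative to the array's 75th percentile) by pair number in the horizontal (left, dorsal to ventral) and sagittal (right, left to right) series, with filled points for H and S and open points for Ho and So. All 4 genes rise between horizontal pairs 3 and 4 and peak in or next to the middle sagittal fractions, and Hoxb5 and Hoxb7 are also raised in the outer left fractions of So.

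Hoxa3 and Hoxc4 were detected on all 61 arrays without a caudal rise. Hoxc4 lay between -4.36 and -3.70 on the 6 caudal arrays and between -4.60 and -3.61 on the 20 others. The 2 probes of Hoxa3 disagreed, with a correlation of 0.21 over the 61 arrays. The brighter one was flat, at -2.43 to -2.10 on the caudal arrays and -2.82 to -1.82 on the others, with -1.15 in the unpaired Co1. The dimmer one, above background on 17 arrays, read -2.48, -3.02 and -3.65 in C1 to C3 and -3.35, -4.12 and -4.50 in Co2 to Co4 and was at least 20.8-fold higher at the caudal end (limma adjusted p = 7.9e-14), with 3 of the 20 other arrays above background. Which transcripts each probe reads was not tested. The 2 probes of Hoxa4 correlated at 0.93, those of Hoxb8 at 0.82 and those of Hoxd3 at 0.78, and all rose caudally.

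**Figure D5:**
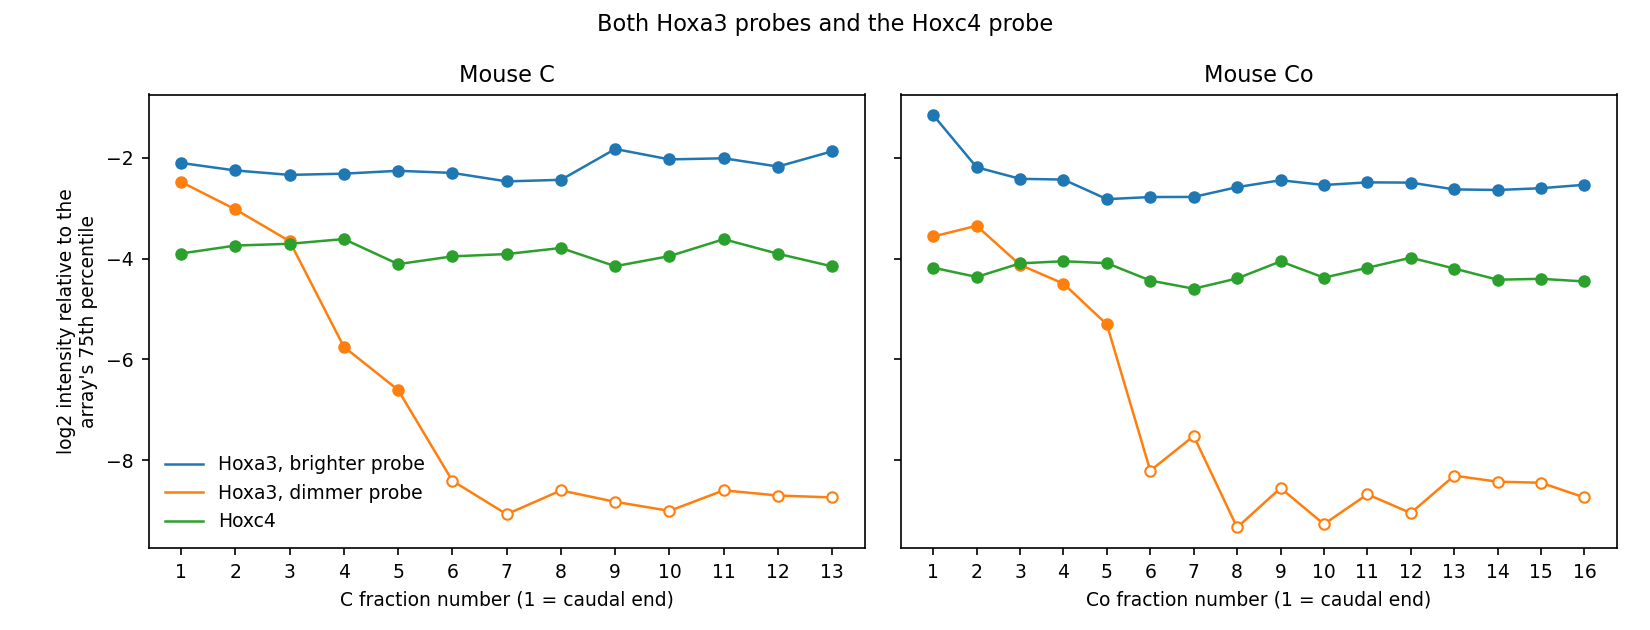
Levels of both Hoxa3 probes and of Hoxc4 (log2 intensity relative to the array's 75th percentile) along the coronal series of C and Co; filled points are well above background. The brighter Hoxa3 probe and Hoxc4 are flat from end to end apart from a higher Hoxa3 level in Co1 (-1.15), and the dimmer Hoxa3 probe falls from the caudal end to background.

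Between the mice of a plane, 2 of 27 Hox genes differed (limma's F test of 3 contrasts, 63.1% of all probes), and these were the flat ones. For Hoxc4 the log2 difference was -0.38 for Co minus C, -0.31 for So minus S and 0.37 for Ho minus H. Hoxa3, by its brighter probe, had a Co minus C difference of -0.37. C and Co were scanned on different days, so that mouse and scan day cannot be told apart there. For the genes with a gradient a miss of the threshold does not show that the mice were alike, as their spread within a pair was larger; Hoxb7, for example, had a Co minus C difference of -0.58 with an adjusted p of 0.27.

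The partners and regulators of Hox genes moved in both directions at the caudal end, with list medians of -0.23 (cofactors), 0.08 (Polycomb and trithorax) and 0.22 (patterning and retinoid genes, log2) against 0.11 over all probes. The shares to read the counts against are the 25.3% of all probes called higher and the 18.1% called lower. Of 9 cofactor genes of the Meis, Pbx and Pknox families, which help Hox proteins to bind DNA, Meis1 rose caudally (1.64 ± 0.12, SE, log2), 6 fell, among them Meis2 by 1.53, and Pbx3 and Pknox1 did not pass. Of 20 Polycomb and trithorax genes, which keep Hox clusters silent or active, 5 rose and 4 fell, shares near those of all probes, none by as much as 1 on the log2 scale. The largest rise was that of Eed (0.38) and the largest fall that of Rnf2 (-0.38).

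Of 14 hindbrain patterning and retinoid genes, 3 rose and 3 fell, again close to the 25.3% and 18.1% of all probes. Aldh1a2, which makes retinoic acid, rose by 0.90 ± 0.15 (SE, log2), Cyp26b1, which degrades it, by 0.48, and Gbx2 by 1.02. Egr2, a segmentation gene of the embryonic hindbrain and an activity-induced gene in the adult, fell by 5.37, the receptor Rarb by 0.41 and Cyp26a1, above background on 2 of 6 caudal and 15 of 20 other arrays, by 1.45. Cdx4 was above background on 0 arrays. Among 11 genes that flank the clusters 3 rose and 3 fell, where 25.3% and 18.1% of all probes did. The rise of Evx1, the homeobox gene beside the Hoxa cluster, was 3.75 ± 0.25 (SE, log2; above background on 6 of the 20 other arrays), and that of Skap2, at the other end of that cluster, 0.99 ± 0.10, while Evx2 beside the Hoxd cluster did not pass (0.47 ± 0.29).

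The profiles of most Hox genes were alike over the whole set of fractions. Each of the 20 genes detected on at least 10 arrays was set against the mean of the other 19 over the 61 arrays, and Pearson's r was 0.97 for Hoxa5, 0.96 for Hoxb6, 0.95 for Hoxc5, 0.67 for Hoxa6, 0.39 for Hoxb1, 0.33 for Hoxa3 and 0.19 for Hoxc4. Outside the clusters, the 10 genes whose profiles were most like the mean of the 20 Hox genes were Pax8 (r = 0.89), the peptide gene Nmu (0.89), Hepacam (0.88), Uts2 (0.87), Uts2b (0.87), Serpinb1b (0.87), Esyt1 (0.86), Slc6a5 (0.86), Evx1 (0.85) and Grin3b (0.85). These values describe 61 arrays that share mice and neighboring tissue. Pax8, a paired-box transcription factor, fell from -2.95 in C1 to -8.42 in C13 and from -3.34 in Co2 to -8.62 in Co15.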

How the data were processed

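Total RNA of 61 brain fractions was measured on 1-color arrays. The authors deposited spot intensity values from Agilent Feature Extraction 9.1 (processing notes), background-subtracted and not normalized between arrays, and an intensity table that they normalized in GeneSpring, in which 99.9% of the values equal the probe's mean spot intensity divided by 1 constant per array (within 1%). All of its columns were matched to arrays.

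The deposited intensity was taken to log2, averaged per probe where it had several spots, and scaled to the 75th percentile of its array (740 to 1971 units). The methods' ANOVA over 28 pairs was run as limma 3.58.1 in R 4.3.3 (lmFit, eBayes, 28 residual degrees of freedom) on probes well above background on at least 1 array, and So1, Co1, Co13, Co16 and Ho1, which have no partner, entered no fit. Precision is limited by 2 mice per plane. "At least" folds set the dim group at the higher of its own signal and the lowest signal above background on each array. They are not strict lower bounds, as that floor can lie below a gene's own limit of detection. On data simulated for the caudal comparison over 36573 probes, 79% of changes of 1 (log2) and 94% of changes of 2 were recovered, with 9 false calls. The simulated arrays were independent, while the real ones correlated within mice and slides. These rates therefore check the fit and do not give its error rate on the real arrays. Gene names came through RefSeq identifiers (22951 probes). All Hox genes are accounted for, as are the lists of cofactors, regulators and flanking genes, apart from Kmt2a, Cyp26c1 and Calcoco2, to which no probe was matched, and 1 gene that is not reported here and is left out of the counts. The members, lists and tests were chosen with earlier results of these data known.

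Arrays of 1 mouse are paired by that mouse: deviations from the pair mean correlated with a median r of 0.278 within mice (129 combinations) and -0.0255 between mice (249). The main fit took the arrays as independent, so its adjusted p does not measure the spread between mice alone. The 16 slides (consensus correlation 0.540) and 5 scan days were tested as blocks. Other alternatives were the scaling, normexp with quantile normalization, filters, a floor of 5, the authors' table, other probes, single planes or mice, and leaving out each array. Scripts used Python 3.11.15, numpy 2.4.6, pandas 2.3.3, scipy 1.17.1 and matplotlib 3.10.9.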

Additional observations from a re-analysis of the deposited data

Results flagged for a closer look

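In the sagittal and horizontal series, 108 combinations of a gene and a mouse were searched for a fraction set apart from the others, and 11 were found, where chance gives about 1 in 20. Most lay near background. Hoxd11 was set apart in S2 (-6.72), So6 (-6.38) and H2 (-7.53), Hoxb8 in So7 (-6.37), H4 (-7.94) and Ho5 (-7.28), and Hoxa13 in S5 (-6.57) and H2 (-7.36), all above the rest of their series and none of them well above background. Hoxa6 was low in S1 (-6.61) and Hoxb2 in So3 (-7.66), also without a signal above background. Hoxb13 in So9 (-4.69) was the 1 such value that was well above background.

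The 5 arrays without a partner in the other mouse also held Hox signals. Co1, the most caudal fraction of Co, had 21 Hox genes above background, So1 had 8, Ho1 had 9, Co13 had 5 and Co16 had 6. In Co1 the levels of Hoxb9 (-0.66) and Hoxb8 (-4.34) were above or near those of the next fraction, Co2 (-2.18 and -4.17).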

How the results depend on the processing

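Of the 21 genes called at the caudal end, 17 stayed called under every alternative that gave a value. Hoxb1 and Hoxc9 lost the call under 5 and 7 alternatives, and Hoxb4 and Hoxb9 under 1 each, the slide as a fixed block. The number of genes called at the caudal end was 17 to 28 over the settings and 20 to 22 with single arrays left out. Other ranges with single arrays left out were 23 to 26 genes varying over the pairs, 16 to 17 ventral, 13 to 16 midline, 2 to 4 from c1 to c2, 0 to 4 from c2 to c3, 0 to 3 from c3 to c4, 0 to 1 from c4 to c5 and 2 to 3 between the mice. With the mouse as a replicate block, 24 genes varied, 21 were called caudally, 17 ventrally, 16 at the midline and 2 from c4 to c5, and the paired fit changed no other count by over 1.5 times.

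The steps depended most on the settings. From c1 to c2 the count was 10 with normexp, 1 with probes above background on at least 10 arrays, 7 with the slide as a random and 5 as a fixed block. From c3 to c4 it was 8 with normexp, 6 with the random slide, 1 with the scan day and 0 in the ANOVA without moderation. From c4 to c5 it was 0 with median scaling, the authors' intensities, normexp or the other probe, and 2 with the random slide. Between the mice, 4 genes were called with normexp, 4 with all probes and 7 with the floor. In the sagittal plane alone 1 gene varied.

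Uncalled genes changed sign: Hoxa13 with normexp (-0.022) and the floor (-0.083), Hoxc10 with normexp (-0.041) and in C alone (-0.027), Hoxa3 in C alone (-0.062), Hoxb13 with the fixed slide (-0.31), and Hoxd11 with the fixed slide (2.34), in Co alone (0.25) and with single arrays left out (-0.32 to 0.067, above 0 without C2, C7 or Co9). The causes were not tested. The midline and mouse comparisons could not be fitted with a fixed slide effect. Genes near background have only folds against a floor.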

Other observations

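Apart from the middle fractions, the outer left arrays So1, So2 and S1 carried raised levels of some Hox genes. These arrays shared 1 slide, and S2, So3 and So4 lay on others, so that slide and outer left position cannot be told apart. Hoxb6 stood at -2.15 in So1 and -1.12 in So2, against -5.18 in So3 and -4.87 in So4, and at -4.27 in S1 against -6.59 in S2. Hoxb7 stood at -3.71 and -2.46 in So1 and So2, against -5.35 and -7.76 in So3 and So4, and at -5.00 in S1 against -8.03 in S2. Hoxa7 read -1.86 in So2, above the -4.26 of So3. On the right, So10 and S9 were close to or above their inner neighbors for Hoxb6 (-1.24 against -0.70 in So9, and -3.21 against -3.98 in S8). Among the dorsal horizontal fractions, Hoxb6 was -4.02 in Ho1 against -6.23 in Ho2, and Hoxb5 was -4.47 in Ho1 against -7.46 in Ho2. These are single arrays and were not compared by a test.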
